A study of Mus musculus with 148 samples.

Results

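Silencing of chromosome 3 by an Xist transgene was compared between Suz12KO and WT iXist-Chr3 cells after 3 days of induction, gene by gene, for all 538 genes of the table that holds both lines. The iXist-Chr3 cells are XY mouse embryonic stem cells with 129S and Cast parental chromosomes, in which a multicopy Xist transgene under a doxycycline-inducible promoter sits on the Cast copy of chromosome 3 at about 126 Mb (mm10). The 4 groups were WT NoDox, WT Dox, Suz12KO NoDox and Suz12KO Dox, with 3 libraries each, so 12 of the 148 libraries of the series and 538 of the 1025 genes in its allelic tables were used. Every group was differentiating culture at day 3, and the Dox groups had doxycycline for 72 h, a time taken from the time-course label because another label of the same samples gives a shorter induction. Suz12KO is 1 null line made in iXist-Chr3 cells, so the loss of Suz12 and any other difference between these 2 lines cannot be told apart. The table holds chromosome 3 genes only and Suz12 lies on another chromosome, so the loss of its transcript could not be checked in these values.

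Xist is the long non-coding RNA that coats the X chromosome from which it is made and starts the silencing of its genes, and it can do the same to an autosome that carries it. It brings in several silencing activities, among them the Polycomb complexes PRC1 and PRC2, which modify the histones H2A and H3. Suz12 is a core subunit of PRC2, and without it PRC2 is unstable and trimethylation of H3 lysine 27 is lost. The comparison asks how much of the silencing by Xist is still reached without PRC2, and at which genes.

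The measurement is the allelic ratio of chromatin-associated RNA, the share of allele-assigned reads of a gene that come from the Cast chromosome with the transgene. A gene read equally from both copies has a ratio near 0.5, and silencing in cis lowers it. Silencing of a gene in a Dox library was taken as its ratio minus the mean ratio of the 3 NoDox libraries of the same line, so that a more negative value is stronger silencing. The difference between the lines is the Suz12KO value minus the WT value, and a positive difference means that the ratio fell less in Suz12KO. The reads behind each ratio are not known, so the precision of a single ratio is unknown and the error given here is the spread between libraries.

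Before induction the lines had close medians over the chromosome. The median ratio over genes was 0.472, 0.47 and 0.475 in the WT NoDox libraries and 0.471, 0.474 and 0.472 in the Suz12KO NoDox libraries. With limma, 0 genes (0%) differed between the NoDox groups at an adjusted p under 0.05, and the smallest adjusted p was 0.11. At an unadjusted p under 0.05, limma gave 29 of 538 genes (5.39%), and the methods' t-test gave 50 before and 0 after Benjamini-Hochberg adjustment.

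Xist silenced most of chromosome 3 in both lines. In WT, 460 of 538 genes (85.5%) had a lower ratio with Dox at an adjusted p under 0.05 by limma. In Suz12KO the count was 394 (73.2%). Both lines shared 381 silenced genes, which are 82.8% of those of WT and 96.7% of those of Suz12KO. The 79 genes called in WT alone had median silencing of -0.1 in WT and -0.0387 in Suz12KO, and in 72 of them the Suz12KO value was still below 0. A call in WT alone is no test of the difference, and the difference itself had an unadjusted p under 0.05 in 15 of these 79 genes.

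Over all genes, median silencing stood closer to 0 without Suz12, but the libraries of the lines overlapped. The median silencing over the 538 genes was -0.168, -0.174 and -0.141 in the WT Dox libraries. It was -0.133, -0.141 and -0.0974 in the Suz12KO Dox libraries. The weakest WT library and the strongest Suz12KO library both stood at -0.141. The means were -0.161 ± 0.0179 in WT and -0.124 ± 0.0235 in Suz12KO (SD, n = 3 libraries each), a difference of 0.0369 with an exact two-sided permutation p of 0.2, where 3 against 3 libraries cannot go below 0.1. The share of WT silencing kept was 77.1%, from 60.5% to 87.8% in single Suz12KO libraries. In bulk RNA, fewer cells that silence and weaker silencing in each cell cannot be told apart, nor can fewer cells of a type and less RNA per cell.

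The Dox library numbered 3 had the weakest silencing of its line in both lines. Without both of these libraries, a choice made after seeing the data, the difference was 0.0338 and the share kept was 0.803, with 3 genes less silenced and 2 genes more silenced in Suz12KO at an adjusted p under 0.05. Leaving out Suz12KO Dox library 3 alone lowered the difference to 0.0236. The replicates of a group are cultures of 1 line, so the p-values measure the spread between such replicates.

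Across genes the shift was small and mostly one way. The difference was positive in 425 of 538 genes (79%), with a median of 0.0343 and quartiles of 0.00672 and 0.0603, beside a median standard error of 0.0387 for a single gene. At an unadjusted p under 0.05 by limma, 66 genes (12.3%) were less silenced and 5 genes (0.929%) more silenced in Suz12KO. These counts depend on the scale, with 128 and 6 between the Dox ratios alone, and 16 and 27 with libraries centred on their medians, which takes out any shift shared by all genes and leaves 239 differences (44.4%) positive. All 3 Suz12KO values lay above all 3 WT values in 157 genes (29.2%) and below them in 18 genes (3.35%).

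The order of genes was similar in both lines. Across the 538 genes, mean silencing in WT and in Suz12KO had a Pearson r of 0.859 and a Spearman correlation of 0.845, a description over genes, which share libraries and are not independent replicates. With the limits of the study's methods, which call silencing weak above -0.05, low from -0.05 to -0.2 and high below -0.2, the high class held 213 genes in WT and 160 in Suz12KO. The low class held 283 and 276, and the weak class 42 and 102. In all, 387 genes were in the same class in both lines, 131 were in a weaker class in Suz12KO and 20 in a stronger one. Of the 213 high genes of WT, 147 stayed high, 63 were low and 3 were weak in Suz12KO. These 3 were Gpr89, Fat4 and Rusc1.

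**Figure D1:**
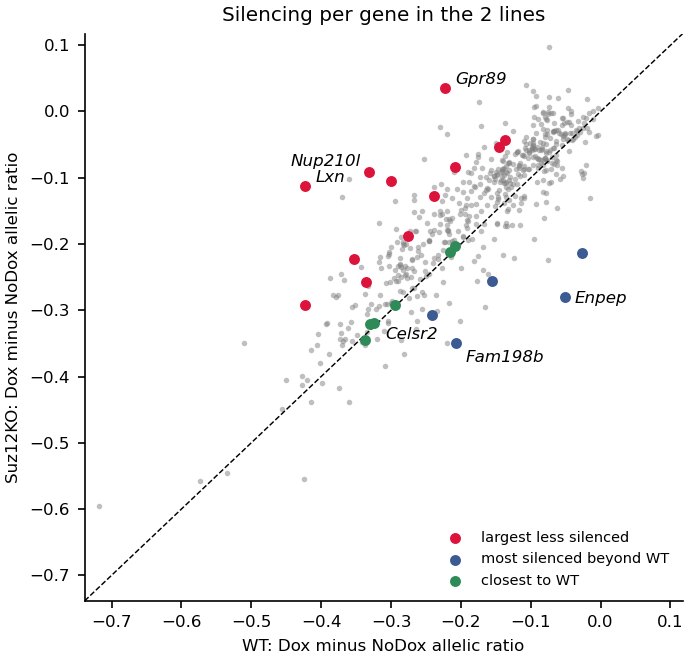
Mean Dox minus NoDox allelic ratio of each of the 538 genes in WT (x axis) and Suz12KO (y axis), over 3 libraries each, with the dashed line at equal silencing. Most points lie above the line, as 425 genes had a positive difference. Red points are the 12 genes named as less silenced, blue the 5 named as more silenced and green the 6 named as closest to WT.

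At an adjusted p under 0.05 by limma, 2 of 538 genes (0.372%) were less silenced in Suz12KO and 0 (0%) were more silenced, where the unadjusted count was 5 and the methods' t-test gave 10 before and 1 after adjustment. The 2 genes were Gpr89, a channel of the Golgi membrane that sets the pH of that compartment, and Nup210l, a paralogue of a membrane nucleoporin.

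Gpr89 (chr3:96871066-96905298, minus strand) was silenced in WT and not called silenced in Suz12KO. The ratio was 0.824, 0.8 and 0.812 in WT NoDox and 0.619, 0.6 and 0.548 in WT Dox. It was 0.75, 0.769 and 0.75 in Suz12KO NoDox and 0.824, 0.733 and 0.818 in Suz12KO Dox. Every WT library therefore fell on induction, while the Suz12KO Dox libraries lay on both sides of their NoDox libraries. Silencing was -0.223 ± 0.0366 in WT and 0.0353 ± 0.0506 in Suz12KO (SD, n = 3 each), a difference of 0.258 (95% interval 0.177 to 0.339, limma adjusted p = 0.00763). The gene started far from balance in both lines, and in a separate WT pair of libraries at 3 days, whose title names mRNA, its silencing was -0.0589. Its call was lost when libraries were centred on their medians (difference 0.219, limma adjusted p = 0.0566) and with the methods' t-test after adjustment (difference 0.258, adjusted p = 0.0902).

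Nup210l (chr3:90104132-90212017, plus strand) was called silenced in both lines. The ratio went from 0.495, 0.466 and 0.463 in WT NoDox to 0.138, 0.121 and 0.173 in WT Dox. In Suz12KO it went from 0.346, 0.355 and 0.392 to 0.252, 0.271 and 0.295. The 4 groups did not overlap, with a mean NoDox ratio of 0.364 in Suz12KO and 0.475 in WT, a difference that did not pass the adjusted threshold (limma adjusted p = 0.11, unadjusted p = 0.000205). Silencing was -0.331 ± 0.0265 in WT and -0.0918 ± 0.0216 in Suz12KO (SD, n = 3 each), a difference of 0.239 (95% interval 0.177 to 0.301, limma adjusted p = 0.00286). Between the Dox libraries alone the difference was 0.129, and the part of the NoDox difference in the result was not tested.

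A further 10 genes with no overlap between the lines and the smallest unadjusted p missed the adjusted threshold. Between the Dox ratios alone, where 41 genes were called less silenced, all but Casp6 passed it (limma adjusted p 0.0132 to 0.0477). Hspa4l, a heat shock chaperone, had silencing of -0.205, -0.23 and -0.191 in the WT libraries and -0.113, -0.0707 and -0.0689 in the Suz12KO libraries (difference 0.124, limma adjusted p = 0.105). Gmps, the last enzyme of GMP synthesis, had -0.153, -0.137 and -0.119 in WT and -0.0425, -0.0419 and -0.0427 in Suz12KO (difference 0.094, limma adjusted p = 0.112). These are genes with low spread in both lines, and Gmps passed the threshold on the log2 odds scale. Mme, the cell-surface peptidase neprilysin, went from -0.238 ± 0.0195 in WT to -0.127 ± 0.0224 in Suz12KO. Sclt1, a protein of the centriole's distal appendages, went from -0.145 ± 0.00925 to -0.0533 ± 0.0228 (SD, n = 3 each, for both genes).

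The other 6 covered a wide range of silencing in WT. Hormad1, a protein of the meiotic chromosome axis, was among the strongly silenced genes of both lines, with -0.424 ± 0.0187 in WT and -0.292 ± 0.0343 in Suz12KO. Lxn, the carboxypeptidase inhibitor latexin, had the same WT value of -0.424 and -0.112 in Suz12KO, but its Suz12KO libraries spread from -0.21 to -0.000416 and it overlaps another gene of the table. She, an SH2 adaptor, had -0.301 in WT and -0.104 in Suz12KO. The lysosomal mannosidase Manba had a difference of 0.0876, and the fatty acid elongase Elovl6 and the effector caspase Casp6, both within 10 Mb of the transgene, had 0.0783 and 0.13. Casp6 also had a lower NoDox ratio in Suz12KO, 0.414 against 0.499.

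In the opposite direction, the 5 genes with an unadjusted p under 0.05 had all their Suz12KO values below their WT values, and none passed the adjusted threshold. Fam198b had silencing of -0.226, -0.193 and -0.204 in WT and -0.396, -0.372 and -0.283 in Suz12KO (difference -0.143, limma adjusted p = 0.224). Its Dox ratios were close, 0.162 in WT and 0.144 in Suz12KO, while its NoDox ratio was 0.37 in WT and 0.494 in Suz12KO. Fam198b passed the threshold when libraries were centred on their medians and when Suz12KO Dox library 3 was left out. Tmem144, the gene next to it in the table, had -0.156 ± 0.0322 in WT and -0.256 ± 0.0176 in Suz12KO (SD, n = 3 each).

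Enpep, the glutamyl aminopeptidase of the angiotensin pathway, had -0.0517 in WT and -0.28 in Suz12KO. Its NoDox ratio was 0.21 in WT and 0.372 in Suz12KO, and the part of that difference in the result was not tested. Wdr47, a WD repeat protein, had -0.242 and -0.306, and its difference of -0.0645 was -0.0325 between the Dox ratios alone. For 0610031J06Rik the values were -0.0265 and -0.214, with Suz12KO libraries from -0.334 to -0.093.

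Some genes were silenced to nearly the same level with and without Suz12. Among the 80 genes called silenced in both lines with WT silencing below -0.2 and a standard error below the median, the 6 with the smallest absolute difference were St6galnac3, Stxbp3a, Celsr2, Dbt, Snhg8 and Phgdh. Celsr2, a cadherin of planar cell polarity, had -0.314, -0.356 and -0.301 in WT and -0.29, -0.344 and -0.322 in Suz12KO. Its difference was 0.00496 with a 95% interval of -0.0633 to 0.0732. The sialyltransferase St6galnac3 had a difference of 0.00264 (95% interval -0.0727 to 0.078), and Phgdh, the first enzyme of serine synthesis, one of 0.00907 (95% interval -0.0748 to 0.0929). The libraries of the lines overlapped in all 6 genes, and each interval still holds the median difference of 0.0343, so these genes were not shown to differ from the typical gene.

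At the other end, 60 genes called silenced in WT had mean silencing above -0.05 in Suz12KO. The 6 with the strongest WT silencing among them were Fat4, Gpr89, Rusc1, Nexn, Pbxip1 and Egfem1. They were chosen by these same values, so the values are a description, and except for Gpr89 and Pbxip1 the libraries of the lines overlapped. Fat4, a large atypical cadherin, had -0.344, -0.215 and -0.133 in WT and 0.0266, -0.166 and 0.0687 in Suz12KO. Rusc1, an adaptor protein, had -0.207, -0.037 and -0.416 in WT, and its difference of 0.186 was 0.045 between the Dox ratios alone. The actin-binding nexilin gene Nexn had -0.174 ± 0.111 in WT and 0.0148 ± 0.1 in Suz12KO (SD, n = 3 each). Pbxip1, which codes for a partner of PBX homeodomain proteins, had -0.171 and -0.0223. Egfem1, whose deposited RPKM is 0, had -0.15 and -0.0477.

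**Figure D2:**
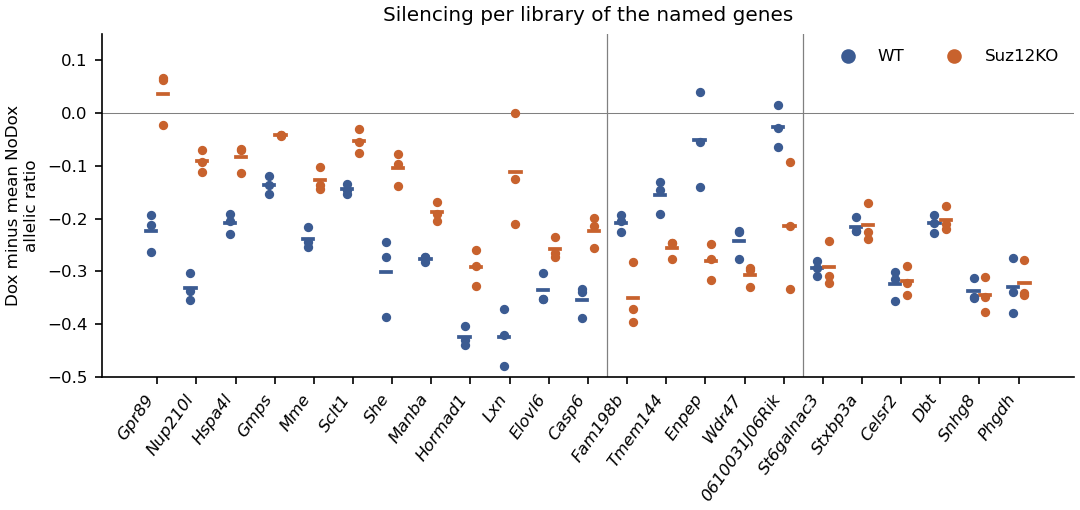
Dox minus mean NoDox allelic ratio of each Dox library (points) with the mean of 3 (bars) in WT and Suz12KO, for the 12 genes named as less silenced (left), the 5 named as more silenced (middle) and the 6 named as closest to WT (right). Only Gpr89 and Nup210l on the left passed the adjusted threshold, and on the right the points of the lines overlap in all 6 genes.

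The genes nearest to the transgene were silenced in both lines. Ugt8a, the ceramide galactosyltransferase of myelin, is the nearest gene on the telomeric side, 0.124 Mb away, and its Dox ratio was 0.0102, 0 and 0.0198 in WT and 0.00766, 0.0157 and 0.0334 in Suz12KO. Its silencing was -0.304 ± 0.00992 in WT and -0.319 ± 0.0132 in Suz12KO (SD, n = 3 each). Snhg8, a host transcript of small nucleolar RNAs, is the nearest on the centromeric side at 2.3 Mb and had -0.337 and -0.345. At both genes the values of the lines overlapped, and the direction of the Ugt8a difference turned on the log2 odds scale (0.427).

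Silencing was weaker at larger distances from the transgene in both lines, and the absolute difference between the lines did not follow distance. Across genes, silencing and distance had a Spearman correlation of 0.41 to 0.44 in the WT libraries and 0.406 to 0.466 in the Suz12KO libraries, where a positive value means weaker silencing farther away. For the difference between the lines the correlation was 0.0545. Within 10 Mb the mean of the library medians was -0.268 ± 0.0229 in WT and -0.229 ± 0.0411 in Suz12KO (SD, n = 3 each, 77 genes). Beyond 75 Mb it was -0.0922 ± 0.007 and -0.0635 ± 0.0185 (99 genes).

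The difference was of like size in each band, and the shares kept of single libraries overlapped between bands. The differences were 0.0384 within 10 Mb, 0.0438 from 10 to 25 Mb, 0.0452 from 25 to 50 Mb, 0.0374 from 50 to 75 Mb and 0.0287 beyond. The mean shares kept were 85.7%, 80.4%, 69.7%, 76.4% and 68.9% in that order. From 25 Mb outwards the Suz12KO libraries did not overlap the WT libraries in any band (exact permutation p = 0.1 each, the smallest possible), while within 25 Mb they did. The near minus far contrast, genes within 25 Mb minus genes beyond 75 Mb, was -0.145 in WT and -0.14 in Suz12KO, a difference of 0.00518 with an exact permutation p of 0.5.

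When each library's silencing was divided by its own median over all genes, a scaling chosen after seeing the data that turns the sign because the medians are negative, the medians over the genes within 25 Mb did not overlap between the lines. These genes stood at 1.47 ± 0.00797 times the library median in WT and 1.64 ± 0.0407 times in Suz12KO (SD, n = 3 each). The near minus far contrast on that scale was 0.898 in WT and 1.13 in Suz12KO (exact permutation p = 0.1, the smallest possible). The centromeric 10 Mb next to the transgene had 1.74 and 2.05, without overlap. The telomeric 10 Mb had 1.6 and 1.74 and the band from 10 to 25 Mb 1.39 and 1.46, with overlap in both.

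The sides of the transgene were compared within 35 Mb, the length of the telomeric arm. The telomeric genes had median silencing of -0.207 ± 0.0268 in WT and -0.175 ± 0.0273 in Suz12KO (SD, n = 3 each, 114 genes). The 160 centromeric genes had -0.221 ± 0.0168 and -0.192 ± 0.0397. The contrast of the sides differed by 0.00325 between the lines (exact permutation p = 0.8), below the spread of the libraries. By gene, 25 of the centromeric (15.6%) and 8 of the telomeric genes (7.02%) had an unadjusted p under 0.05 by limma for less silencing. Positive differences made up 75.6% and 79.8%, and these shares were not tested.

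In windows of 10 Mb, the share kept ranged from 41% to 110% along the chromosome. The gene-rich window from 80 to 90 Mb, with 78 genes, had -0.143, -0.128 and -0.112 in the WT libraries and -0.084, -0.0949 and -0.0455 in the Suz12KO libraries, with no overlap and 58.6% kept, while 4 of its genes (5.13%) had an unadjusted p under 0.05 for less silencing and the median of the gene differences was 0.0369, beside 12.3% and 0.0343 over all genes. From 10 to 20 Mb, where 19 genes include the fatty acid binding protein gene Fabp5, the cell cycle factor E2f5 and the carbonic anhydrases Car2 and Car13, named after their values were seen, 41% was kept. Silencing there was -0.0712 ± 0.0228 in WT and -0.0292 ± 0.00598 in Suz12KO (SD, n = 3 each), and 11 genes (57.9%) were called silenced in WT against 3 (15.8%) in Suz12KO, beside 85.5% and 73.2% of all genes. E2f5 had -0.082 in WT and -0.000944 in Suz12KO (unadjusted p = 0.0106 by limma), and was the only 1 of the 19 under 0.05.

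From 110 to 120 Mb and from 120 to 130 Mb means of 94.4% and 90.1% were kept, and the libraries of the lines overlapped. The medians of the gene differences in these windows were 0.0342 and 0.016, beside 0.0343 over all genes. From 20 to 30 Mb, with 12 genes, the value was 110% and ranged from 73.1% to 133% over the Suz12KO libraries. Of the 16 windows this was the only one with a negative difference of the library medians, -0.00922, while 9 of its 12 genes had a positive difference and the median of the gene differences was 0.0241.

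**Figure D3:**
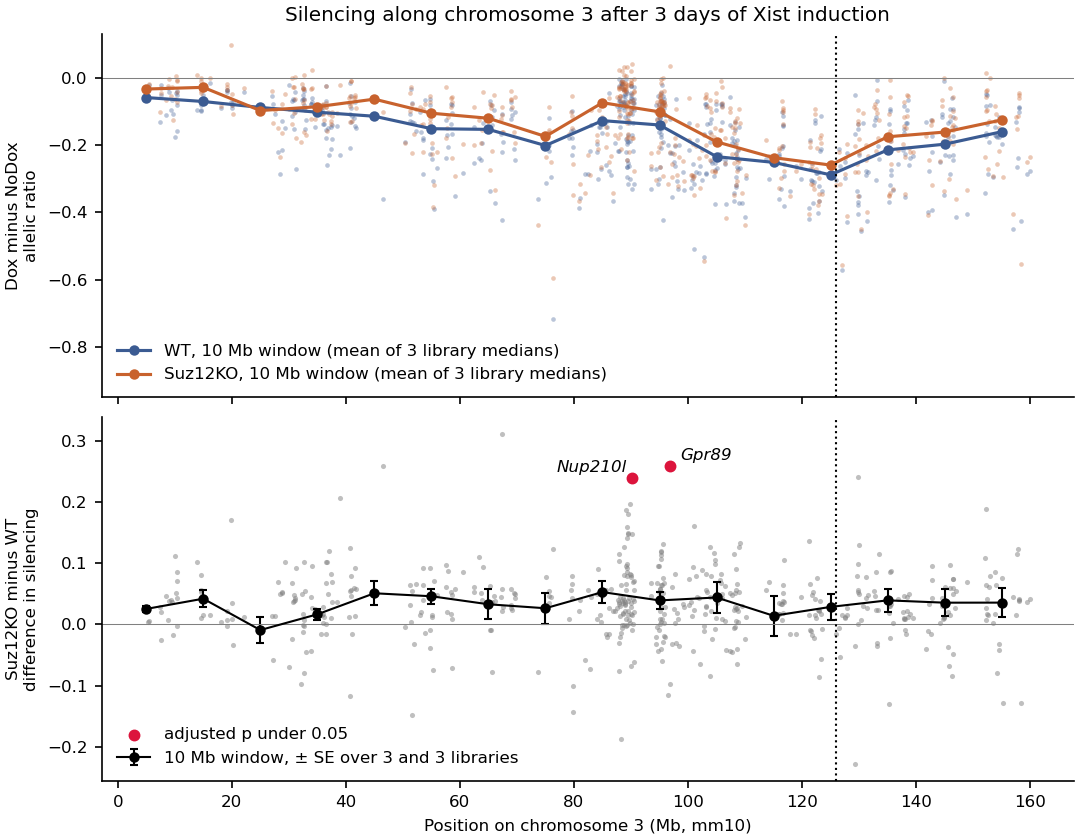
Top, mean Dox minus NoDox allelic ratio of each gene against its position on chromosome 3 (Mb, mm10) in WT and Suz12KO, with lines through the mean of the 3 library medians in each 10 Mb window. Bottom, the difference between the lines per gene (grey) and per window (black, bars are the standard error over 3 and 3 libraries), with Gpr89 and Nup210l in red. The dotted line marks the transgene at about 126 Mb, where silencing was strongest in both lines, and the window differences lie between -0.00922 and 0.0528.

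Across tertiles of silencing strength the shares kept of single libraries overlapped. To order genes without the 12 libraries compared, the separate WT pair of the other chromosome 3 table was used, which covers 498 of the 538 genes. The title of this pair names mRNA, so the order may rest on another kind of RNA. The tertile with the strongest silencing in that pair had -0.287 ± 0.0274 in WT and -0.247 ± 0.0431 in Suz12KO (SD, n = 3 each, 166 genes), with 86.1% kept (68.8% to 95% in single libraries). The middle tertile had -0.164 and -0.12, with 73.1% kept and no overlap of the lines. The weakest tertile had -0.0833 ± 0.0126 and -0.0545 ± 0.0108, with 65.4% kept (50.5% to 74.3%) and no overlap of the lines. The strong minus weak contrast differed by 0.0112 between the lines (exact permutation p = 0.7) as measured. Divided by the library medians it was 1.27 in WT and 1.56 in Suz12KO (exact permutation p = 0.1, the smallest possible).

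Across tertiles of expression they overlapped as well. In the lower tertile of the deposited RPKM (up to 6.13) silencing was -0.217 ± 0.0217 in WT and -0.184 ± 0.0332 in Suz12KO (SD, n = 3 each), with 84.7% kept (67.1% to 95% in single libraries). There the libraries of the lines overlapped. The middle tertile kept 78.8%, without overlap of the lines. In the upper tertile (17.6 and above) it was -0.12 ± 0.0191 and -0.0848 ± 0.0145, with 70.8% kept (57.3% to 80.8%) and no overlap of the lines. The differences of the tertiles were 0.0332, 0.0347 and 0.0349, and the contrast of upper and lower differed by 0.00175 between the lines (exact permutation p = 1). By gene, 9 (5.03%), 27 (15.1%) and 30 (16.7%) had an unadjusted p under 0.05 for less silencing from the lower to the upper tertile, and 68.7%, 83.8% and 84.4% had a positive difference, which was not tested. Such counts and shares also depend on the spread of single genes between libraries, which was not compared between the tertiles. The contrast divided by the library medians was -0.609 in WT and -0.799 in Suz12KO (exact permutation p = 0.1, the smallest possible). The RPKM column does not name its library, so it orders genes and is no level of these lines.

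**Figure D4:**
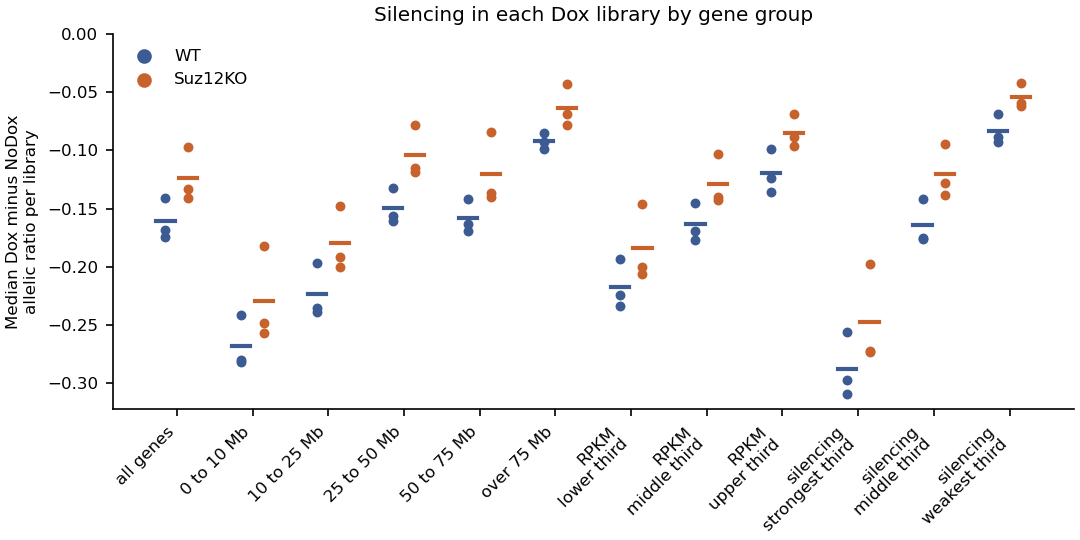
Median Dox minus NoDox allelic ratio in each Dox library (points, 3 per line) and their mean (bars) for all 538 genes, bands of distance from the transgene, tertiles of deposited RPKM and tertiles of silencing in a separate WT pair whose title names mRNA. WT and Suz12KO are offset by a like amount in each group, 0.0287 to 0.0452 over the bands of distance, while the level of silencing differs more between groups.

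Since PRC2 is known to act at CpG-rich promoters, genes were also grouped by the number of CG dinucleotides in a promoter window of 300 bases, 250 before and 50 after the start, given by RefSeq (GRCm38.p6) for 431 of the 538 genes (80.1%). The motif CG reads the same on both strands. The lower tertile (0 to 16) had -0.202 ± 0.0159 in WT and -0.152 ± 0.0219 in Suz12KO, with 75.1% kept. The middle tertile (17 to 25) kept 87.3%, and the upper tertile (26 to 57) had -0.166 ± 0.0193 and -0.126 ± 0.0214 with 76% kept (SD, n = 3 each). The rich minus poor contrast was 0.0367 in WT and 0.0261 in Suz12KO, a difference of -0.0106 (exact permutation p = 0.1, the smallest possible). With means in place of medians it was -0.000467 (exact permutation p = 0.9), and with scaling by library medians, which turns the sign, the contrast was -0.232 in WT and -0.216 in Suz12KO (exact permutation p = 0.8), so its size rests on the choice of summary.

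The windows of 4 named genes are printed to show the range of CG dinucleotides among them. Gpr89 and Hspa4l are named as less silenced in Suz12KO, St6galnac3 and Celsr2 as closest to WT, and each CG is in capitals. The Gpr89 window (chr3:96905249-96905548, minus strand) has 11, and 82.1% of the 431 windows have as many or more. The Hspa4l window (chr3:40745363-40745662, plus strand) has 42, reached by 4.87% of windows. The St6galnac3 window (chr3:153725084-153725383, minus strand) has 20, reached by 54.3%, and the Celsr2 window (chr3:108415530-108415829, minus strand) has 40, reached by 6.26%.
Gpr89: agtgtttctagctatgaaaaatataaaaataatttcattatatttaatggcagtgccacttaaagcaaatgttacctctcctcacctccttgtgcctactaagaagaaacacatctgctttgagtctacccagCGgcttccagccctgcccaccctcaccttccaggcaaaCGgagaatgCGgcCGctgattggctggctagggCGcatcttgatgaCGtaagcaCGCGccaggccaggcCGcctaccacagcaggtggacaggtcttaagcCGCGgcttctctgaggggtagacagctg
Hspa4l: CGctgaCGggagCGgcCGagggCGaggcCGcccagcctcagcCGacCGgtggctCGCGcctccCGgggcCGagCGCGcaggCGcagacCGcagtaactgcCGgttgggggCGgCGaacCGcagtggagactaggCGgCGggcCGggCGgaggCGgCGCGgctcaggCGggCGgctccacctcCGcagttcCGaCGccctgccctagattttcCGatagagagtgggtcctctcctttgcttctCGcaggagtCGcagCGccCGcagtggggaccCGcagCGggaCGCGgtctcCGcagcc
St6galnac3: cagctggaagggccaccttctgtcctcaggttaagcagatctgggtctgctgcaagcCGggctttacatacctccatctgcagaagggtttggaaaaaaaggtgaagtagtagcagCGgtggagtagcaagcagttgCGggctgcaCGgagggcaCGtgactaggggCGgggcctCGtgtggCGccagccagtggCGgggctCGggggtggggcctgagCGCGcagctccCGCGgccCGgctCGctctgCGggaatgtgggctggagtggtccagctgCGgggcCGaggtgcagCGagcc
Celsr2: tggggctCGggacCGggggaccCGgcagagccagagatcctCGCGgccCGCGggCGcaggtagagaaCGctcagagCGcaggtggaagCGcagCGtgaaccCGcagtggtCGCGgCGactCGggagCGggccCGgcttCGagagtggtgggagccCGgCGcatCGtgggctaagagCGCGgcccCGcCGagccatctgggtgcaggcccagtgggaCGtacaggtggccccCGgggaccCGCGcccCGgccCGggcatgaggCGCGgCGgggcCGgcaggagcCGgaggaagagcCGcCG

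Gene lists were read by counts and medians beside those of all 538 genes, where the share kept was 77.1% and 66 genes (12.3%) had an unadjusted p under 0.05 for less silencing and 5 (0.929%) for more. The share kept rests on medians per library, and the medians of the gene differences, from 0.0208 for RNA-binding genes to 0.0433 for transcription factors beside 0.0343 over all genes, order the lists in another way. Neither Gpr89 nor Nup210l is on any of the 10 lists, and no list held a gene with an unadjusted p under 0.05 for more silencing.

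Lineage-restricted and neuronal genes were silenced most deeply of the lists in both lines. The 23 genes in the table had median silencing of -0.357 ± 0.0263 in WT and -0.321 ± 0.048 in Suz12KO (SD, n = 3 each), with 89.9% kept, overlapping libraries and 0 genes at an unadjusted p under 0.05 by limma. Lphn2, an adhesion receptor of the latrophilin family, had -0.405 and -0.336, and Dclk2, a doublecortin-like kinase, had -0.365 and -0.343. With a library left out, the Lphn2 difference, 0.0694, was 0.0346 to 0.0944, and that of Dclk2, 0.0225, was 0.00666 to 0.039. Lrrc7, a postsynaptic density protein with a deposited RPKM of 0.101, had -0.425 and -0.554, but its direction turned on the log2 odds scale (0.177) and between the Dox ratios alone (0.0382). Syt11, a synaptotagmin, had -0.0966 and 0.0305. In both Lrrc7 and Syt11 the lines overlapped.

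Transcription factors and genes of developmental signalling kept 87.9%, with -0.201 ± 0.0285 in WT and -0.177 ± 0.0187 in Suz12KO (SD, n = 3 each, 25 genes), while the median of their gene differences, 0.0433, was above that of all genes. All 25 were called silenced in WT and 19 (76%) in Suz12KO, beside 85.5% and 73.2% of all genes, and 6 of 25 had an unadjusted p under 0.05 for less silencing. Skil, a repressor of TGF-beta signalling at 94.7 Mb from the transgene, had -0.0421 in WT and 0.00125 in Suz12KO. Arnt, the dimer partner of hypoxia factors, had -0.14 ± 0.0213 and -0.0748 ± 0.0172 (limma adjusted p = 0.341). For Zbtb7b, a zinc finger factor of T cell fate, the values were -0.267 and -0.126, and Rfx5, a regulator of MHC class II genes, had -0.3 and -0.205. In these 4 genes all Suz12KO values lay above the WT values, and none passed the adjusted threshold. With a library left out, the difference of Zbtb7b, 0.141, was 0.0838 to 0.175 and that of Rfx5, 0.0949, was 0.0503 to 0.129.

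Chromatin regulators were weakly silenced, with -0.101 ± 0.0228 in WT and -0.0779 ± 0.0075 in Suz12KO (SD, n = 3 each, 27 genes, 77.4% kept). Of these, 2 had an unadjusted p under 0.05. Tet2, which oxidises methylated cytosine, had -0.264, -0.256 and -0.204 in WT and -0.163, -0.131 and -0.0847 in Suz12KO (difference 0.115, limma adjusted p = 0.294). Pygo2, a Wnt coactivator that reads methylated H3, had -0.252 and -0.0715. The highly expressed Jade1, a subunit of histone acetyltransferase complexes, and H2afz, the histone variant H2A.Z, had differences of 0.013 and 0.00989, below their standard errors of 0.0267 and 0.0324.

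Cell cycle and mitosis genes kept 72.3%, and their libraries did not overlap (-0.147 ± 0.0103 in WT, -0.106 ± 0.0147 in Suz12KO, SD, n = 3 each, 19 genes). Of these, 3 of 19 had an unadjusted p under 0.05, among them Sclt1. The condensin subunit Smc4 had -0.0727 and -0.0406, and the kinetochore kinesin Cenpe had -0.138 and -0.108. Psrc1, a spindle protein, had -0.318 and -0.228, with Dox ratios that differed by 0.0305. In all 3 genes the Suz12KO values lay above the WT values.

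RNA-binding and RNA-processing genes kept 78.2%, with 7 of 43 at an unadjusted p under 0.05. Mov10, an RNA helicase, had -0.255 ± 0.0157 in WT and -0.151 ± 0.0141 in Suz12KO (SD, n = 3 each, limma adjusted p = 0.294). Prcc, a nuclear protein linked to splicing, had -0.0926 and 0.023. The abundant Fxr1, of the fragile X protein family, was silenced weakly in both lines, with -0.0594 and -0.032.

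Translation and ribosome genes were, beside chromatin regulators, the most weakly silenced of the lists, with -0.0995 ± 0.0192 in WT and -0.0743 ± 0.024 in Suz12KO (SD, n = 3 each, 21 genes, 74.6% kept) and 0 of 21 at an unadjusted p under 0.05 by limma. Rps3a1 of the small ribosomal subunit had -0.0451 and -0.0602, and Naa15, of the N-terminal acetylation complex at the ribosome, had -0.0333 and -0.0288. Among mitochondrial ribosome genes, Mrpl47 had -0.0924 and 0.00894, with Dox ratios that differed by 0.00198. Mrpl24, which overlaps another gene of the table, had -0.0249 and -0.101.

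Mitochondrial and metabolic genes kept 84.1%, with 7 of 40 at an unadjusted p under 0.05. Gmps and Elovl6 were among them. Cth, an enzyme of cysteine synthesis, had -0.263, -0.254 and -0.197 in WT and -0.14, -0.148 and -0.0546 in Suz12KO (limma adjusted p = 0.294). Pmvk, of the mevalonate pathway, had -0.317 ± 0.0921 and -0.168 ± 0.0946 (SD, n = 3 each), with overlap. Its difference of 0.149 was 0.0543 between the Dox ratios alone.

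Ubiquitin and proteasome genes had the lowest share kept of the 10 lists, 68.9%, without overlap of the libraries (-0.149 ± 0.0247 in WT, -0.103 ± 0.0172 in Suz12KO, SD, n = 3 each). The median of their gene differences was 0.023, below that of all genes, and 4 of 19 had an unadjusted p under 0.05. The conjugating enzyme Ube2d3 had -0.096, -0.101 and -0.0972 in WT and -0.0501, -0.0617 and -0.0644 in Suz12KO. Trim59 had -0.0942 and -0.0673, and Trim46, which organises axonal microtubules, had -0.295 and -0.136. With a library left out, the Trim59 difference, 0.027, was 0.00269 to 0.0608. Rnf115, a ubiquitin ligase, had -0.123 and -0.221, with Suz12KO libraries from -0.354 to 0.0123, and its direction turned between the Dox ratios alone (0.0266).

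Kinases, GTPases and signalling genes kept 84.9%, with 5 of 32 at an unadjusted p under 0.05. Mcl1, an inhibitor of apoptosis and among the most highly expressed genes of the table, had -0.0902, -0.0927 and -0.0447 in WT and 0.0114, -0.00822 and -0.00426 in Suz12KO, so all 3 Suz12KO values lay within 0.0114 of 0 (limma adjusted p of the difference = 0.294). Prkab2, a subunit of AMP-activated kinase, had -0.264 and -0.181, and the ephrin Efna4 had -0.266 and -0.181. In these 2 genes the lines overlapped, and the Efna4 difference was -0.0623 without Suz12KO NoDox library 1, so its direction turned. The Prkab2 difference of 0.083 was 0.0324 between the Dox ratios alone.

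Secretory and trafficking genes kept 72.8%, with 3 of 25 at an unadjusted p under 0.05. Ap4b1, an adaptor complex subunit, had -0.193 ± 0.0401 in WT and -0.0656 ± 0.0576 in Suz12KO (SD, n = 3 each, limma adjusted p = 0.36). Its difference of 0.127 was 0.0497 between the Dox ratios alone. The flippase gene Atp11b had -0.0967 and -0.0806, and its relative Atp8b2 had -0.0975 and -0.0208. With a library left out, the Atp8b2 difference, 0.0767, was 0.0197 to 0.15. Ssr3, of the translocon, had -0.0805 and -0.0902, and its direction turned between the Dox ratios alone (0.0501). The lines overlapped in Atp8b2 and Ssr3.

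The lines are kept on mouse fibroblast feeders, so fibroblast genes were read as well. Of 19 such markers 12 were in the table, with a summed deposited RPKM of 552 and Cyr61 as the most abundant at 134. Stem cells may express many of these genes too. Their median ratio in single NoDox libraries was 0.477 to 0.496 in WT and 0.482 to 0.503 in Suz12KO, and their median difference in silencing was 0.0374, beside 0.0343 over all genes. Sox2, the stem cell marker, is not among the genes used here, so the cell type was not checked by it. The neural progenitor gene Nes had -0.22 and -0.117, and the mesendoderm gene Lef1 had a difference of 0.0434. The part of culture composition in the result was not tested.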

How the data were processed

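Chromatin-associated RNA of 12 libraries was sequenced and processed by the authors, who removed ribosomal RNA reads with Bowtie2 (version 2.3.2), aligned the rest to mm10 with known polymorphisms masked using STAR (version 2.4.2a), kept unique reads, assigned these to a parental allele using SNPsplit, and obtained strand-specific gene totals from featureCounts, keeping genes with at least 10 reads over polymorphisms. The deposited allelic ratio is a fraction from 0 to 1, Cast reads over reads of both alleles, with no scaling between libraries and with its read depth unknown. The deposited RPKM column gives expression scaled to gene length and depth from a library the authors do not name, and it only orders genes. A deposited p-value column of the authors was not used. Deposited starts were counted from 0 and were raised by 1.

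The ratios of all 538 genes were fitted with limma (version 3.58.1, R 4.3.3), with 1 coefficient for each of the 4 groups, and p-values were adjusted by Benjamini-Hochberg over all genes. Library medians were tested by exact permutation (two-sided). Python 3.11.15 was used with scipy 1.17.1 for tests, pandas 2.3.3 and numpy 2.4.6 for tables, and matplotlib 3.10.9 for plots, and the fit was tested on simulated data. A chromosome 3 table of other libraries was used only to order genes and to give its own values, as the tables were made separately.

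Genes were named by rule. The first set was the 12 largest positive and 5 largest negative differences with an adjusted p under 0.05 and no overlap between the lines, with places left filled by the smallest unadjusted p under 0.05 with the same sign and no overlap. The second was the 6 genes closest to WT among those silenced in both lines with WT silencing below -0.2 and a standard error below the median. The third was the 6 genes with the strongest WT silencing among those silenced in WT and above -0.05 in Suz12KO. From each of 10 gene lists the 2 members with the highest RPKM and the 2 with the largest absolute difference were taken, and the gene nearest to the transgene on each side. Not every gene that this rule takes is printed in the report. The members and lists were chosen with earlier results of these data known.

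Alternatives were means over genes, log2 odds of the ratio, filters on the NoDox ratio, RPKM and overlapping genes, same-numbered subtraction, the replicate number as a block, Dox ratios alone, centred libraries, trended and robust limma, the methods' t-test, other limits of distance, tertiles and classes, and each library left out in turn. For the difference between the lines, the t-test compared the 3 Dox values of each line, less the line's mean NoDox ratio. Its error therefore leaves out the spread of the NoDox libraries. Leaving out Dox library 3 of both lines and dividing by library medians were chosen after seeing the data.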

Additional observations from a re-analysis of the deposited data

Results flagged for a closer look

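The silencing of 2 genes differed between the lines by the test of the difference itself. For Gpr89 the difference was 0.258, with silencing of -0.223 in WT and 0.0353 in Suz12KO. For Nup210l it was 0.239, with -0.331 in WT and -0.0918 in Suz12KO. In the separate WT pair, whose title names mRNA, the values were -0.0589 for Gpr89 and -0.286 for Nup210l.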

How the results depend on the processing

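Of 251 alternatives over results other than single genes, 226 kept their value within the spread of the libraries, within 1.5 times for counts, or in direction for values on the log2 odds and scaled scales, and 25 moved. The contrasts between groups of genes lie near 0 and turned direction in 25 alternatives. Over the 66 named genes 1444 alternatives were computed, of which 1337 kept the direction and the side of the threshold, 89 moved, 2 lost and 16 gained the call. Much of this was fixed in advance. The filters, the replicate block, trended and robust limma and the t-test leave the difference of a gene as it is, so its direction could not turn. Same-numbered subtraction also leaves it as it is, and it was counted as kept for every gene without a test. The direction turned in 58 of the 89, over 22 genes, none of them called in either fit. The 2 losses were those of Gpr89, and 13 of the 16 gains came with the Dox ratios alone. The causes were not tested except where named.

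The count of genes less silenced in Suz12KO, 2, was 4 on the log2 odds scale, 1 with NoDox ratios of 0.2 to 0.8, which leaves out Gpr89, 41 between the Dox ratios alone, 1 with centred libraries, 4 with the methods' t-test after adjustment and 107 before. The count more silenced, 0, was 1 with centred libraries, 1 with the adjusted t-test, 10 with the unadjusted t-test, 0 to 1 with a library left out and 2 without Dox library 3 of both lines. For these 2 counts the t-test leaves out the spread of the NoDox libraries, so its counts tend to be too high. Genes that differed before induction, 0, were 1 on the log2 odds scale, 50 with the unadjusted t-test, 0 to 3 with a library left out and 5 without Dox library 3 of both lines.

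The CpG contrast of -0.0106 was -0.000467 with means, -0.00574 at an RPKM of at least 1, -0.00401 with same-numbered subtraction and -0.019 to -0.00417 with a library left out, the ends reached without Suz12KO NoDox 1 and WT NoDox 3. The expression contrast of 0.00175 was -0.0515 as log2 odds. The contrast of the sides, 0.00325, was -0.0137 with same-numbered subtraction. With scaled libraries, where division by a negative median turns the sign, the near minus far contrast of 0.00518 was 0.233 and the strong minus weak contrast of 0.0112 was 0.289. The directions as measured are not stable, since without Suz12KO Dox 3 these contrasts were -0.00751 and -0.00753, and with means near minus far was -0.00603. With 3 against 3 libraries the exact permutation p of these contrasts cannot go below 0.1, so none could pass 0.05. The log2 odds and scaled values are in other units.

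With a library left out, the median difference was 0.0236 to 0.0471, the share kept 0.717 to 0.854, genes silenced in WT 431 to 464 and in Suz12KO 355 to 412. With class limits of -0.1 and -0.25, 145 genes were in a weaker class, beside 131.

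Across genes the replicate numbers showed little pairing, as the deviations of same-numbered libraries correlated at -0.104 to 0.164 and 2 of 18 pairs were over 0.1. Such a correlation does not see a shift shared by all genes. The median silencing of the Dox libraries had the same order by number in both lines. Their median ratios did not, with 0.291, 0.287 and 0.322 in WT and 0.319, 0.329 and 0.37 in Suz12KO. A shared shift of same-numbered Dox libraries was not tested. With the replicate number as a block, 2 genes were less and 0 more silenced (90 and 8 at an unadjusted p under 0.05 by limma), 468 were silenced in WT and 394 in Suz12KO, and 3 differed before induction. Read depth per gene is unknown, so a ratio of a gene with low RPKM can rest on few reads.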

Other observations

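Some further genes were silenced strongly in both lines. Among the genes with the lowest Suz12KO values, named after their values were seen, the follistatin-like gene Fstl5 had -0.719 in WT and -0.595 in Suz12KO, and the ankyrin gene Ank2, 1.13 Mb from the transgene, had -0.573 and -0.557. Sycp1, of the synaptonemal complex, had -0.534 and -0.546, and the collagen gene Col25a1 had -0.456 and -0.449. For none of these 4 genes was the unadjusted p of the difference under 0.05 by limma. The smallest was 0.158, for Fstl5.

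The other chromosome 3 table gives silencing at 3 days in other libraries without replicates, and the title of its WT pair names mRNA, so its kind of RNA may differ. Over the 498 shared genes the median was -0.2 in its WT pair and -0.194, -0.192 and -0.196 in its 3 Lbr-null pairs. Over the same genes the WT libraries compared here had -0.161 and the Suz12KO libraries -0.123. The difference between the WT values of the tables was not tested.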
